A study of Mus musculus with 9 samples.

Results

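The basal epidermal keratins described here are Krt5, Krt14 and Krt15, the keratin genes of the cells that sit on the basement membrane of the skin. They were taken by gene symbol from the count tables of 9 mouse back skin libraries and are 3 of the 23238 unique symbols in those tables. All mice were wild-type C57BL/6 (B6), and the skin of each was collected at 24 h. The unstripped group was skin without tape-stripping, labelled as control cream. The stripped control group was tape-stripped skin (the outer layers pulled off with adhesive tape) given control cream. The NGO group was tape-stripped skin given a cream with NGO, which stands for nano-sized graphene oxide, at 50 µg of NGO in 100 µL for each mouse. The protocol places cream on tape-stripped skin, so whether the unstripped skin received any is not settled by the labels. Each group held 3 libraries, made from 500 ng of total RNA with a kit that sequences 1 tag near the 3′ end of a transcript. Age and sex are not used here. Nothing in the labels says that replicates came from separate animals, so p-values reflect the scatter among the libraries at hand, which may be technical.

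Keratins build the intermediate filaments of epithelial cells, and each filament needs a type I and a type II partner. Krt5 is the type II and Krt14 the type I keratin of the basal layer, where stem and progenitor cells divide, and mutations of either human gene cause epidermolysis bullosa simplex, a blistering disease. Krt15 is a second type I keratin of basal cells, and in mice it is also used as a marker of the stem cells in the bulge of the hair follicle. When basal cells leave the basement membrane they switch to the suprabasal pair Krt1 and Krt10, and after wounding keratinocytes switch on the stress keratins Krt6a, Krt6b, Krt16 and Krt17.

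All 3 genes lie on the minus strand of mm10, with gene models from GENCODE M21. Krt5 (ENSMUSG00000061527) spans chr15:101707070-101712898 and has 9 exons. Krt14 (ENSMUSG00000045545) spans chr11:100203162-100207548 and Krt15 (ENSMUSG00000054146) spans chr11:100131758-100135928, in the type I keratin cluster, and each has 8 exons. The last 90 coding bases of each gene are shown because 3′ tags fall in this end of the transcript. They are exonic, and the capitals mark the stop codon.

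Krt5, chr15:101707436-101707525: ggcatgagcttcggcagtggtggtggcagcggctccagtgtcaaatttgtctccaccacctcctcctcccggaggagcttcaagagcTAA

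Krt14, chr11:100203312-100203401: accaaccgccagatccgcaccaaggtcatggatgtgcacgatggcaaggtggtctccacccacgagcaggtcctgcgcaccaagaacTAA

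Krt15, chr11:100132017-100132106: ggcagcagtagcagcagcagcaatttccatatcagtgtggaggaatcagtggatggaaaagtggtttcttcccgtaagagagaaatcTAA

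Over the whole coding sequence, the type I pair Krt14 and Krt15 was 67.4% identical, against 48.3% for Krt5 and Krt14 and 48.6% for Krt5 and Krt15. Over the last 400 bases of the transcripts, identity was 44.9% for Krt14 and Krt15, 47.6% for Krt5 and Krt14 and 43.2% for Krt5 and Krt15. No stretch of 50 bases in the last 400 bases of Krt5 or Krt15 occurred in a transcript of another gene. In Krt14, 22 of 351 such stretches (6.27%) also occurred in Krt16 or Krt17. The longest run that Krt14 shared with Krt17 in this window had 71 bases and ended 169 bases before the end of the coding sequence. It is shown in capitals with 10 bases on each side, from 2 neighbouring exons.

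Krt14 and Krt17, chr11:100204017-100204194: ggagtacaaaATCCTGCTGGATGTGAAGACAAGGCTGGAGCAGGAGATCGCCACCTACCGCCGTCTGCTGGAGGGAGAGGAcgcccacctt

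The sources used here do not give how reads matching several genes were counted, or whether strand was used. Some Krt14 counts could therefore belong to its neighbours Krt16 and Krt17, or the reverse. The counts of Krt16 and Krt17 together were 11.1% to 12.5% of those of Krt14 in unstripped libraries, 40.6% to 64.4% in stripped control libraries and 11.7% to 25.9% in NGO libraries. The room for such an exchange was thus widest in the group where Krt14 was low, and its part in the Krt14 level was not tested.

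Library totals ran from 2019739 to 6303322 counts, with 2794791 to 2937738 for unstripped, 2019739 to 4053655 for stripped control and 2997238 to 6303322 for NGO libraries. Levels are counts scaled to the library total (CPM) on library sizes scaled by edgeR's TMM method, as mean ± SD over 3 libraries, and a change is a log2 fold change from the edgeR quasi-likelihood test with its standard error (SE). A gene was called when its p, adjusted by the Benjamini-Hochberg method over 13740 genes tested, was under 0.05. The median log2 fold change of all genes was -0.20 for stripped control against unstripped skin, 0.07 for NGO against stripped control skin and -0.07 for NGO against unstripped skin. The first of these was -0.07 with another scaling (RLE), -0.46 with the replicate number as a block and -0.62 with limma-voom. These shifts are small beside the changes of the keratins with tape-stripping. The make-up of the samples also moved with the groups. Skeletal muscle genes took 0.00879% to 0.139% of counts without stripping, 4.34% to 9.64% with stripping and control cream and 2.26% to 4.34% with NGO, and none of the 15 markers was at 0 in all libraries of a group. The ribosomal RNA entry Rn45s took 14.2% ± 1.63, 23.4% ± 1.51 and 15.3% ± 5.82 (SD, n = 3 each) of counts in the same order. Genes detected numbered 14546 to 16183, 12433 to 13309 and 13863 to 14404.

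Tape-stripping was followed by a fall of all 3 basal keratins in control cream skin. Krt5 fell to 10.1% ± 3.39 and Krt14 to 11.6% ± 3.30 of the unstripped mean, while Krt15 fell to 0.426% ± 0.159 of it (SD, n = 3 each). With NGO cream Krt5 stood at 97.8% ± 17.1 and Krt14 at 85.6% ± 29.4 of the unstripped mean, whereas Krt15 stood at 5.81% ± 1.74. All 3 were called lower in stripped control than in unstripped skin, where 7.64% of all tested genes were called lower and 5.97% higher. All 3 were called higher in NGO than in stripped control skin, where 3.87% of all tested genes were called higher and 1.18% lower. Against unstripped skin, Krt15 alone of the 3 was called lower in NGO skin, where 0.451% of all tested genes were called lower and 2.06% higher. All 3 members had groups that did not overlap, lower in stripped control than in unstripped skin and higher in NGO than in stripped control skin, as did 24.7% and 16.3% of all tested genes. Between NGO and unstripped skin this held for Krt15, in the lower direction, as it did for 14.4% of all tested genes. In whole skin, fewer basal cells and less keratin RNA per basal cell cannot be told apart.

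**Figure D1:**
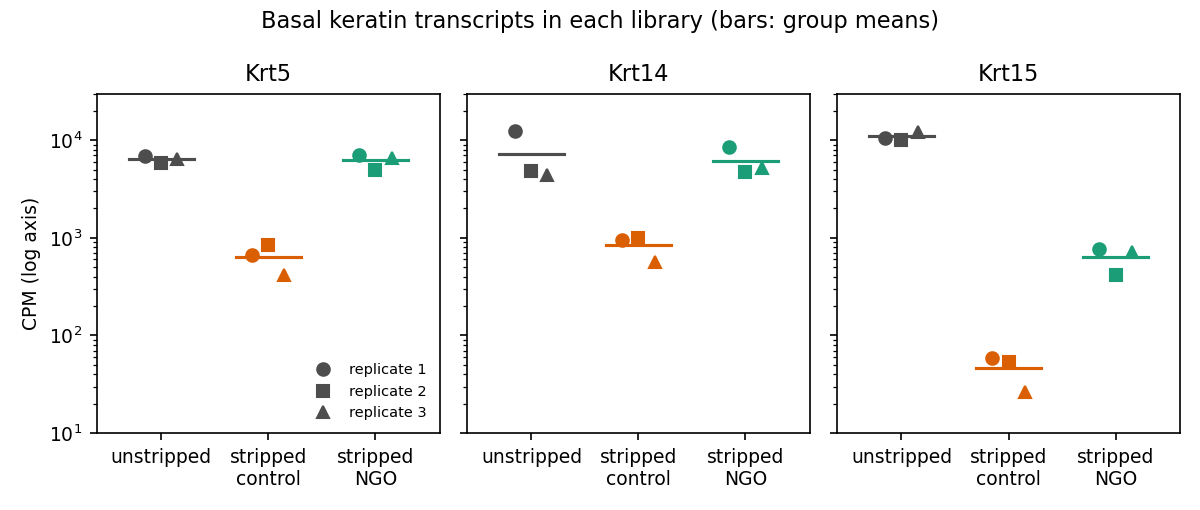
Level of Krt5, Krt14 and Krt15 in each library, in CPM on a log axis, with 1 point per library, shaped by replicate number, and a bar at the group mean. NGO and unstripped libraries overlap for Krt5 and Krt14, and for Krt15 the NGO libraries lie between the other groups, at 415.0 to 762 CPM against 26.7 to 59.0 CPM in stripped control and 10064 to 12176 CPM in unstripped skin.

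Krt5, the type II partner in the basal filament, measured 6798, 5851 and 6413 CPM in unstripped replicates 1, 2 and 3. It measured 667, 840 and 411 CPM in stripped control skin and 7078, 4998 and 6572 CPM in NGO skin. The stripped control libraries were low throughout, and the unstripped and NGO libraries overlapped, with NGO replicate 1 above every unstripped library and NGO replicate 2 below them. Krt5 fell by 3.31 ± 0.33 (log2 fold change ± SE) with tape-stripping, a 9.94-fold drop (edgeR adjusted p = 4.10e-05). NGO skin was 3.28 ± 0.33 above stripped control skin on the log2 scale, or 9.72-fold (edgeR adjusted p = 0.000557), and of all 13740 genes Krt5 had the smallest p in this comparison. Against unstripped skin the log2 fold change was -0.03 ± 0.30 with a 95% interval of -0.68 to 0.62 (edgeR adjusted p = 0.998), so differences of up to about that size in either direction were not resolved.

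Krt14, the type I partner of Krt5, measured 12291, 4867 and 4430 CPM in unstripped replicates 1, 2 and 3. It measured 953, 996 and 564 CPM in stripped control skin, and 8591, 4724 and 5159 CPM in NGO skin. Unstripped replicate 1 was 2.77 times the lowest unstripped library, a wider spread than the 1.16 times of Krt5 and the 1.21 times of Krt15 in the same group. The groups overlapped between unstripped and NGO skin and not otherwise. Krt14 fell by 3.10 ± 0.45 on the log2 scale with tape-stripping, or 8.59-fold (edgeR adjusted p = 0.000425). It was 2.88 ± 0.44 higher on the log2 scale in NGO than in stripped control skin, or 7.35-fold (edgeR adjusted p = 0.0033). Against unstripped skin its log2 fold change was -0.22 ± 0.41, with a 95% interval of -1.11 to 0.66 (edgeR adjusted p = 0.971). Without unstripped replicate 1 its log2 fold change with tape-stripping was -2.49 (edgeR adjusted p = 0.000786), and the log2 fold change of NGO against unstripped skin turned to 0.40 (edgeR adjusted p = 0.853).

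That unstripped library stood apart in some other keratins too, in genes picked after their values were seen. Krt10 measured 2608 CPM in replicate 1 against 8495 and 9042 CPM in replicates 2 and 3, and Krt6a measured 1221 CPM against 346 and 334 CPM. Krt17 measured 1050.1 CPM in it against 482 and 444 CPM, and Krt16 measured 309 CPM against 128 and 101 CPM. Krt1 did not stand apart, at 580 CPM in replicate 1 against 580 and 593 CPM in replicates 2 and 3. Krt15 in this library lay between the other unstripped libraries, and Krt5 was the highest of the group by a small margin.

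Krt15, the type I keratin shared by basal cells and the follicle bulge, measured 10434, 10064 and 12176 CPM in unstripped skin. It measured 59.0, 53.6 and 26.7 CPM in stripped control skin, from 114, 165 and 83 counts, and 762, 415.0 and 721 CPM in NGO skin, from 2522, 1794 and 4332 counts. No library of one group reached the range of another, so the 3 groups formed 3 separate levels. Krt15 fell by 7.88 ± 0.46 on the log2 scale with tape-stripping, or 235-fold (edgeR adjusted p = 2.08e-06), and had the smallest p of all 13740 genes. NGO skin was 3.77 ± 0.38 above stripped control skin, or 13.6-fold (edgeR adjusted p = 0.000557). Against unstripped skin its log2 fold change was -4.11 ± 0.38, or 17.2-fold lower, with a 95% interval of -4.93 to -3.28 (edgeR adjusted p = 0.000115).

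**Figure D2:**
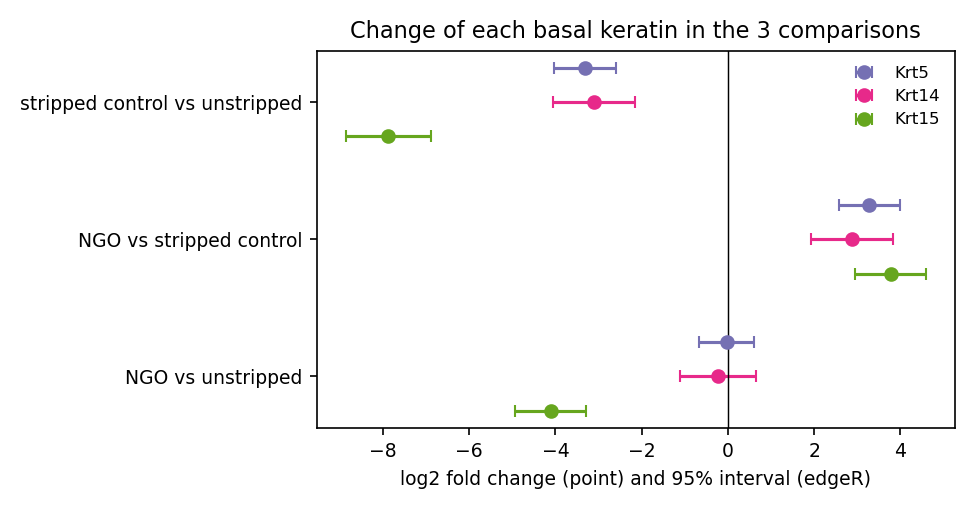
Log2 fold change (point) and 95% interval (bar) of each basal keratin in the 3 comparisons, from edgeR. The intervals of Krt5 and Krt14 cross 0 for NGO against unstripped skin, while that of Krt15 runs from -4.93 to -3.28.

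Because the 3 genes were counted in the same libraries, their ratio within a library does not depend on library size or scaling. The ratio of Krt15 to Krt5 counts was 1.53, 1.72 and 1.90 in unstripped skin. It was 0.0884, 0.0639 and 0.0648 in stripped control skin and 0.108, 0.0830 and 0.110 in NGO skin. Unstripped libraries were far above both stripped groups, and the stripped groups overlapped, with NGO replicate 2 under stripped control replicate 1. An exact permutation test of the log2 ratio for any difference among the 3 groups gave p = 0.00714 (adjusted p = 0.0107 over 3 ratios). Here 0.00357 is the smallest p the design allows. The difference in mean log2 ratio was -4.57 between stripped control and unstripped skin and -4.11 between NGO and unstripped skin, and every one of the 9 pairs of libraries lay in that direction in each comparison. Each of these pairwise exact permutation tests (two-sided) gave p = 0.1, the smallest that 3 against 3 libraries can give (adjusted p = 0.18 over 9 comparisons). Between NGO and stripped control skin the difference was 0.47, with a range of -0.095 to 0.78 over the 9 pairs (exact permutation p = 0.2, adjusted p = 0.257).

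Among the type I keratins, Krt15 gave 45.9%, 67.4% and 73.3% of the counts of Krt14 and Krt15 together in unstripped replicates 1, 2 and 3. It gave 5.83%, 5.11% and 4.51% in stripped control skin, where the exact 95% binomial intervals, which cover counting error alone, ran from 3.61% to 6.96% over the 3 libraries. In NGO skin it gave 8.14%, 8.08% and 12.3%. The 3 groups did not overlap, with unstripped skin highest and stripped control skin lowest, and the low unstripped share belonged to replicate 1, where Krt14 was high. The ratio of Krt15 to Krt14 reached the smallest p of the design over the 3 groups (exact permutation p = 0.00357, adjusted p = 0.0107). Its log2 difference was 0.92 between NGO and stripped control skin, with a range of 0.50 to 1.56 over the 9 pairs (exact permutation p = 0.1, adjusted p = 0.18).

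The Krt14 to Krt5 ratio, the balance of the type I and type II partners, was 1.81, 0.832 and 0.691 in unstripped skin. It was 1.43, 1.19 and 1.37 in stripped control skin and 1.21, 0.945 and 0.785 in NGO skin. Unstripped replicate 1 had the highest ratio and unstripped replicate 3 the lowest, so the group spanned both of the others. No difference over the 3 groups was detected (exact permutation p = 0.443, adjusted p = 0.443), and without unstripped replicate 1 the exact permutation p was 0.0536. The log2 difference between NGO and unstripped skin was -0.07, with a range of -1.20 to 0.81 over the 9 pairs.

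**Figure D3:**
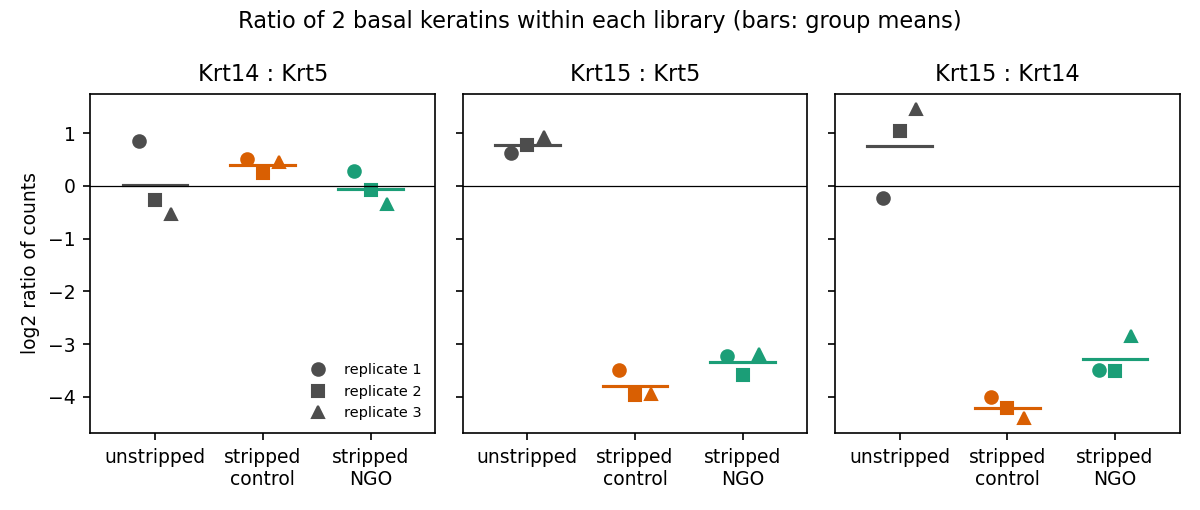
Log2 ratio of the counts of 2 basal keratins within each library, with 1 point per library, shaped by replicate number, and a bar at the group mean. Both ratios with Krt15 are high in unstripped skin and low in both stripped groups, while the 3 groups overlap for Krt14 to Krt5.

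Scaled instead to the summed counts of 15 genes of basal adhesion, which code for hemidesmosome, integrin and basement membrane proteins, the order of the groups was as in CPM. Krt5 gave 1.73 ± 0.0131 counts for each adhesion count in unstripped libraries, 0.342 ± 0.153 in stripped control libraries and 1.63 ± 0.153 in NGO libraries (SD, n = 3 each). Krt14 gave 1.92 ± 1.03, 0.454 ± 0.213 and 1.61 ± 0.455 in the same order. Krt15 gave 2.98 ± 0.334, 0.0257 ± 0.0149 and 0.165 ± 0.0377. Plec, Dst and Itgb1 of this list are also made by muscle, fibroblasts or endothelium, and they gave 38.8% ± 3.35 of the sum without stripping, 55.4% ± 8.80 after stripping with control cream and 35.5% ± 6.35 with NGO. Against the other 12 genes, a choice made after the values were seen, Krt5 gave 2.84 ± 0.138, 0.738 ± 0.217 and 2.55 ± 0.433 in the order of the groups. Krt14 gave 3.20 ± 1.92, 0.978 ± 0.305 and 2.50 ± 0.703, and Krt15 gave 4.86 ± 0.314, 0.0546 ± 0.0239 and 0.260 ± 0.0776. On both sums all 3 keratins were lowest in stripped control skin, and Krt15 in NGO skin stayed under its unstripped range. Across all 9 libraries the log2 CPM of Krt5 and Krt14 had a Pearson r of 0.964, that of Krt5 and Krt15 0.857, and that of Krt14 and Krt15 0.831, as a description over libraries that share the 3 groups.

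For this list and those that follow, 7.64% of all tested genes were called lower and 5.97% higher in stripped control than in unstripped skin. In NGO against stripped control skin 3.87% were called higher, and in NGO against unstripped skin 0.451% lower and 2.06% higher. Of the 15 adhesion genes, 6 were called lower in stripped control than in unstripped skin and Itgb1 higher, with a median log2 fold change of -1.33. In NGO against stripped control skin 4 were called higher (Col17a1, Itga6, Itga3 and Lamb3), and in NGO against unstripped skin edgeR called none, with a median of 0.11. There 4 had an unadjusted p under 0.05, DESeq2 called 0 and limma-voom 5. Col17a1, the hemidesmosomal collagen XVII, fell by 3.46 on the log2 scale with tape-stripping (edgeR adjusted p = 0.000193) and was 2.10 higher with NGO than with control cream (edgeR adjusted p = 0.0145). Itga6, the integrin alpha 6 subunit of the hemidesmosome, fell by 1.55 (edgeR adjusted p = 0.003) and was 2.06 higher with NGO (edgeR adjusted p = 0.00257). Lamb3, a chain of a basement membrane laminin, fell by 2.11 (edgeR adjusted p = 0.00765) and was 1.88 higher with NGO (edgeR adjusted p = 0.0337). Without unstripped replicate 1 the count called lower was 3 in place of 6, and Col17a1 was called lower in NGO than in unstripped skin, at -1.69 (edgeR adjusted p = 0.0336). The NGO calls were lost without NGO replicate 3 for Col17a1 (edgeR adjusted p = 0.066), and for Lamb3 without any 1 library other than stripped control replicate 1, with a highest edgeR adjusted p of 0.0896. Both NGO calls were also lost with limma-voom and in the fit of the 2 compared groups alone, and limma-voom called 1 adhesion gene in NGO against stripped control skin where edgeR called 4.

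Of 8 transcription factors listed here as candidate regulators of basal keratin genes, a link not tested here, 4 were called lower in stripped control skin. These were Trp63, Tfap2c, Klf5 and Bcl11b, and the list median was -1.57. The same 4 were called higher in NGO than in stripped control skin, with a list median of 1.58. In NGO against unstripped skin edgeR called none, while 1 had an unadjusted p under 0.05 and DESeq2 and limma-voom each called 1. Trp63, which encodes the basal epidermal regulator p63, fell by 3.07 (edgeR adjusted p = 0.00121) and was 2.23 higher with NGO (edgeR adjusted p = 0.0246) on the log2 scale. Tfap2c, an AP-2 factor, fell by 3.62 (edgeR adjusted p = 0.00152) and was 3.17 higher with NGO (edgeR adjusted p = 0.012). Bcl11b, a zinc finger factor of skin development, fell by 3.32 (edgeR adjusted p = 1.92e-05) and was 2.24 higher with NGO (edgeR adjusted p = 0.00126). The NGO call of Trp63 was lost when any NGO replicate was left out, with a highest edgeR adjusted p of 0.0882, and that of Tfap2c without NGO replicate 1 (edgeR adjusted p = 0.0507). The fit of the 2 compared groups alone lost both calls, and limma-voom lost that of Trp63.

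Of 9 genes that link keratin filaments to desmosomes or bundle them, 8 were called lower in stripped control skin (median -3.39), and 6 were called higher with NGO than with control cream (median 2.51). Dsp, the desmoplakin that anchors filaments at desmosomes, fell by 4.20 on the log2 scale (edgeR adjusted p = 5.59e-05) and was 2.54 higher with NGO (edgeR adjusted p = 0.00424). It was the 1 gene of this list that edgeR called lower in NGO than in unstripped skin, at -1.66 (edgeR adjusted p = 0.0392). This call did not hold without any 1 of the 3 unstripped or 3 NGO libraries, with a highest edgeR adjusted p of 0.196. The list median of NGO against unstripped skin was -1.04. There 5 had an unadjusted p under 0.05, DESeq2 called 1 and limma-voom 5. Pkp1 and Pkp3, plakophilins of the desmosomal plaque, fell by 3.39 and 2.93 and were 2.51 and 2.50 higher with NGO.

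Of 6 suprabasal keratins, made by the cells above the basal layer, 4 were called lower in stripped control skin (Krt1, Krt10, Krt77 and Krt78) and 3 higher with NGO than with control cream, and the list median after stripping was -7.43, or -6.65 with genes at 0 in a group set at the bound from a floor of 3 counts over the group. Krt1, the type II keratin of the spinous layer, measured 580, 580 and 593 CPM in unstripped skin, had 0, 8 and 0 counts in stripped control skin, and measured 68.8, 35.9 and 89.0 CPM in NGO skin. It fell by 9.20 on the log2 scale (edgeR adjusted p = 2.10e-05), was 6.03 higher with NGO than with control cream (edgeR adjusted p = 0.00126), and was at -3.18 against unstripped skin (edgeR adjusted p = 0.00872). The last of these calls was lost without NGO replicate 2 (edgeR adjusted p = 0.0664), and the call of NGO against stripped control skin was lost in the fit of the 2 compared groups alone. In that comparison limma-voom called 1 suprabasal keratin where edgeR called 3. In NGO against unstripped skin edgeR called 2 of the list lower, Krt1 and Krt10, with a list median of -3.70. There 5 had an unadjusted p under 0.05, DESeq2 called 4 and limma-voom 5. Krt10, the partner of Krt1, averaged 6715 CPM without stripping, 133 CPM with control cream after stripping and 239.8 CPM with NGO. Its log2 fold change was -5.66 with tape-stripping (edgeR adjusted p = 4.10e-05), 0.86 for NGO against control cream (edgeR adjusted p = 0.317) and -4.81 for NGO against unstripped skin (edgeR adjusted p = 0.000363). Krt77 had no count in stripped control skin, where it was at least 199.7-fold lower than in unstripped and at least 26.3-fold lower than in NGO skin. Krt15 thus shared with Krt1 and Krt10 a call below unstripped skin in the NGO group, which Krt5 and Krt14 did not have.

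Of the 4 stress keratins, Krt6a and Krt6b were called higher in NGO than in unstripped skin. Krt6a averaged 634 CPM without stripping, 1604 CPM with control cream after stripping and 4789 CPM with NGO, and its log2 fold change was 2.92 for NGO against unstripped skin (edgeR adjusted p = 0.00434). Krt6b, a near copy of Krt6a whose reads may be split with it, was 2.33 higher in NGO than in unstripped skin (edgeR adjusted p = 0.00591) and 1.76 higher than in stripped control skin (edgeR adjusted p = 0.025). Of the 4 genes, Krt17 was called lower in stripped control skin, at -1.45 (edgeR adjusted p = 0.023). Unstripped replicate 1, high in Krt6a, Krt16 and Krt17, bore on this list. Without it Krt17 was not called in stripped control skin (-0.95, edgeR adjusted p = 0.115) while Krt6a was called higher there (2.22, edgeR adjusted p = 0.00121), and 3 of the 4 genes in place of 1 were called higher in NGO than in stripped control skin. The Krt17 call was also lost without stripped control replicate 2 and with limma-voom, and the Krt6b call against stripped control skin was lost when any NGO replicate was left out, with a highest edgeR adjusted p of 0.0817.

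The other keratins were mostly too low to test, with 2 of 9 companion layer and inner root sheath keratins, 2 of 13 hair shaft keratins, 2 of 6 simple epithelial keratins and 3 of 6 remaining keratins passing the low-count filter. Among these 9 tested genes, Krt79 and Krt23 were called lower in stripped control skin and Krt79 was called higher with NGO. Krt79, a keratin of the mouse hair canal, fell by 4.74 (edgeR adjusted p = 0.00219) and was 3.45 higher with NGO than with control cream (edgeR adjusted p = 0.0298) on the log2 scale. The NGO call ended when stripped control replicate 2 or an NGO library was left out, with a highest edgeR adjusted p of 0.0813. It was also lost with no low-count filter, with limma-voom and in the fit of the 2 compared groups alone, and the call after stripping was lost with no low-count filter. Krt23 had no count in stripped control skin and was at least 156-fold lower there than in unstripped skin.

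Genes of the follicle bulge, where Krt15 is also made, were mostly not called, as was true of all tested genes. In stripped control against unstripped skin, 5.97% of all tested genes were called higher and 7.64% lower. Some of the list were low in level, such as Lgr5 at a mean of 3.98 CPM in unstripped skin. Of 12 tested genes of the list, Lrig1, a marker of stem cells at the top of the follicle, was called higher in stripped control than in unstripped skin, at 1.71 on the log2 scale (edgeR adjusted p = 0.0101). edgeR called none lower there, and the list median was 0.02. In either direction 3 had an unadjusted p under 0.05, DESeq2 called 4 and limma-voom 2. Cd34, the surface marker of mouse bulge cells, was at 1.64 on the log2 scale (edgeR adjusted p = 0.0877), and Gas1, a gene of the hair germ and bulge, at -2.79 (edgeR adjusted p = 0.0665). In NGO against stripped control skin Lgr5 was called lower (edgeR adjusted p = 0.0293) and no gene higher. Lgr5 averaged 23.4 CPM in stripped control and 0.178 CPM in NGO skin, the latter under a floor of 3 counts over the group (0.220 CPM). In NGO against unstripped skin edgeR called none, with a median of -0.24. There 1 had an unadjusted p under 0.05, and DESeq2 and limma-voom each called 1. The Lrig1 call was lost without unstripped replicate 2 or 3, with a highest edgeR adjusted p of 0.0507. Cd34 and Lrig1 are also made outside the follicle.

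Cell cycle genes, active in dividing cells of the basal layer and of other cell types, were called lower in stripped control skin for 5 of 16 and higher with NGO than with control cream for 6 of 16, with list medians of -1.84 and 2.15. The shares over all tested genes were 7.64% lower and 3.87% higher in these comparisons. Plk1, a kinase of mitosis, fell by 2.70 (edgeR adjusted p = 0.00232) and was 3.95 higher with NGO (edgeR adjusted p = 0.00158) on the log2 scale, and limma-voom lost the first of these calls. For NGO against unstripped skin edgeR called none, with a list median of 0.58, while 2 had an unadjusted p under 0.05, DESeq2 called 0 and limma-voom 4. Without unstripped replicate 1, Plk1 was called higher there, at 1.97 (edgeR adjusted p = 0.0398).

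**Figure D4:**
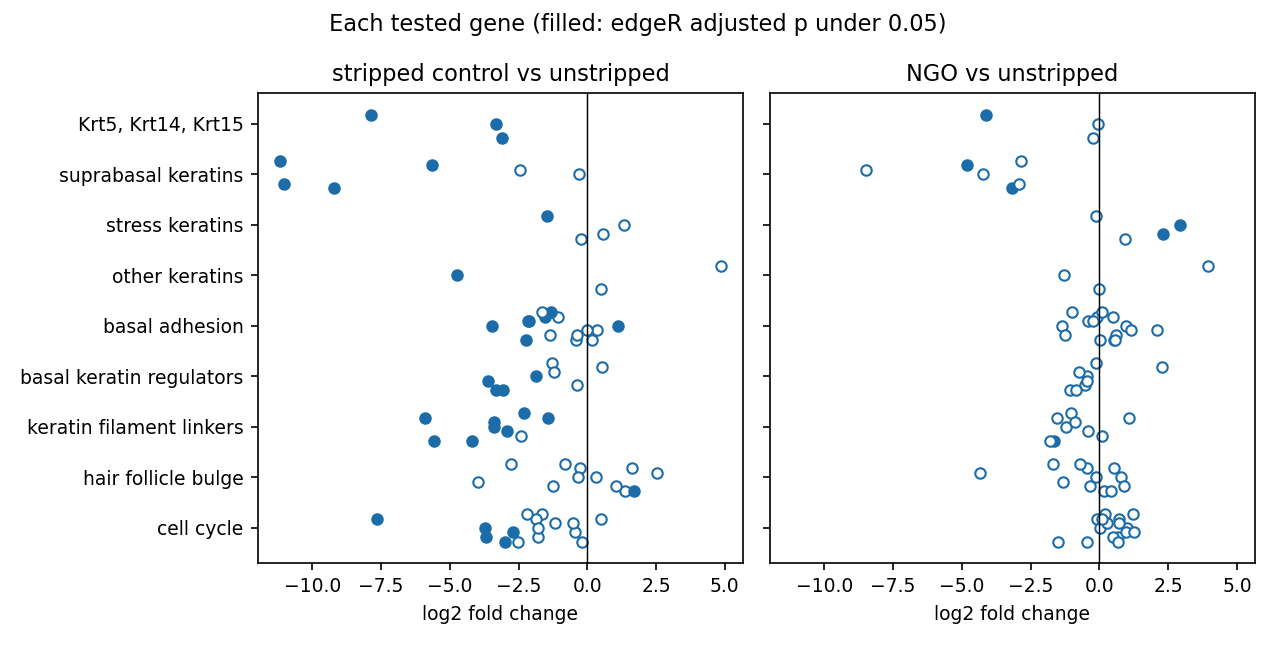
Log2 fold change of each tested gene of the basal keratins and of 8 related lists, for stripped control (left) and NGO skin (right) against unstripped skin. Filled points had an edgeR adjusted p under 0.05, and genes at 0 in a group are drawn at their fitted value. Krt15 is the filled point of the top row at right, where Krt5 and Krt14 lie near 0.

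The genes most like each member were those with the highest Pearson r of log2 CPM over the 9 libraries among 10323 genes. For Krt5 they were Luzp1 (r = 0.991), Wnt10a (r = 0.990), Zcchc7, Pola1 and Dhx8, and for Krt14 they were Pkp3 (r = 0.983), Coro1c, Pfkl, Fasn and Rps16. None of these 10 was called in NGO against unstripped skin by edgeR, DESeq2 or limma-voom, and 0 had an unadjusted p under 0.05. For Krt15 they were Krtdap (r = 0.989), Nfib (r = 0.989), Clca3a2, Slco3a1 and Alox12e. Of these, 4 were called lower in NGO than in unstripped skin, led by Alox12e, which had no count in stripped control skin and stood at -3.78 on the log2 scale in NGO against unstripped skin (edgeR adjusted p = 0.00766). Krtdap, a gene of differentiating keratinocytes, was at -2.04 (edgeR adjusted p = 0.0029), Clca3a2 at -2.60 (edgeR adjusted p = 0.00147) and Slco3a1 at -1.60 (edgeR adjusted p = 0.0144), while Nfib was at -0.70 (edgeR adjusted p = 0.267). Leaving out unstripped replicate 1 ended the Alox12e call (edgeR adjusted p = 0.0568), and leaving out replicate 2 or 3 of unstripped or of NGO skin ended that of Slco3a1, with a highest edgeR adjusted p of 0.0838. The genes of all 3 sets were chosen for following their member over the same 9 libraries. Their patterns, called or not called, are therefore descriptions.

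Markers of other layers and cell types moved with the groups beside the keratins. Cornified layer genes, 5 of whose 6 members are in the tables, took 0.389% ± 0.0140 of unstripped, 0.0155% ± 0.00463 of stripped control and 0.0912% ± 0.0100 of NGO counts (SD, n = 3 each), with Ivl at 0 in stripped control skin. All 15 skeletal muscle markers were called higher in both stripped groups than in unstripped skin, and edgeR called none between NGO and stripped control skin, where 9 had an unadjusted p under 0.05, DESeq2 called 1 and limma-voom 11. Neutrophil markers took 0.00451%, 0.502% and 0.103% of counts in that order of groups, fibroblast markers 0.0386%, 0.101% and 0.107%, and adipocyte markers 0.00336%, 0.0534% and 0.0537%. Not all members of these lists moved alike. In stripped control against unstripped skin S100a8, S100a9 and Retnlg were called higher and the other 3 neutrophil markers were not called. Of 6 fibroblast markers 4 were called higher there. Of 4 tested adipocyte markers Fabp4 and Cfd were called higher, while Lep and Cidec had no count in stripped control skin. Endothelial markers took 0.00472%, 0.0373% and 0.0256%, and red blood cell markers 0.00843%, 0.0850% and 0.0333%. Their part in the keratin levels was not tested. With the muscle, adipocyte and red blood cell genes and Rn45s left out of the library sizes, all 9 keratin results kept their direction and their call. That refit changes the scaling alone, so it cannot show what share of a sample was epidermis.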

How the data were processed

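Per the labels' protocols, RNA was isolated with Trizol and made into Lexogen QuantSeq 3′ tag libraries. The authors deposited whole-number counts per gene symbol, 1 table for each library, with 23282 entries, of which 44 repeat a symbol and were kept apart. The submitters' processing notes name Bowtie2, bedtools and mm10 with no version. Rules for strand and for reads with several matches are not given in the sources used here. A tag gives about 1 count per transcript, so counts were not divided by length.

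All 9 libraries entered 1 quasi-likelihood fit (edgeR 4.0.16 in R 4.3.3, robust, TMM factors, filterByExpr) with group as the factor. Ratios used a pseudocount of 0.5 and exact permutation tests over libraries. The fit was tested on simulated data. Alternatives were other scalings, filters, DESeq2 1.42.0, limma-voom (limma 3.58.1), the replicate number as a block, 2-group fits, and leaving out each library. Applying these to the related lists and named genes was chosen after seeing the data. Named genes were the members, the 3 tested genes with the smallest p for stripped control against unstripped skin in each of 11 lists, and the 5 most correlated genes for each member. Of the genes so named, Krt75, Krt27, Krt32, Krt84, Krt8, Krt12 and Krt76 were called in no comparison and are not given by value. Itga3, Klf5, Lgr5, Krt16, the cell type markers and list members given as counts fall outside this rule. Members and lists were chosen with earlier results of these data known. Replicate libraries differed by more than sampling noise, so none was merged.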

Additional observations from a re-analysis of the deposited data

How the results depend on the processing

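Of 162 refits of the 9 keratin fold changes, 156 kept their direction and their side of the threshold, and 6 turned sign, all in NGO against unstripped skin, where neither Krt5 nor Krt14 was called. For Krt5 this log2 fold change was 0.039 with no low-count filter, 0.0081 with limma-voom and -0.14 to 0.10 when 1 library was left out (0.01 without unstripped replicate 1 and 0.10 without NGO replicate 2). For Krt14 it was 0.26 with limma-voom and -0.55 to 0.40 when 1 library was left out. The Krt14 to Krt5 log2 difference of NGO against unstripped skin ran from -0.34 to 0.35, at 0.35 without unstripped replicate 1 and 0.08 without NGO replicate 3. Krt15 stayed at -8.04 to -7.60, 3.52 to 4.01 and -4.27 to -3.88 in the order of the comparisons in the report. Genes called numbered 1870 for stripped control against unstripped skin, with 3171 by DESeq2 and 1159 to 2124 when 1 library was left out (1188, 1168 and 1159 without unstripped replicates 1, 2 and 3). For NGO against stripped control skin they numbered 694, with 1954 by DESeq2, 420 by limma-voom, 118 in the fit of 2 groups and 206 to 929 when 1 library was left out. For NGO against unstripped skin they numbered 345, with 810, 1284, 602 and 214 to 495. Higher and lower calls split 820 to 1050, 532 to 162 and 283 to 62. In the order of the comparisons, RLE gave 948 to 931, 428 to 215 and 288 to 61, and limma-voom 1392 to 1154, 189 to 231 and 835 to 449. The cause of these shifts was not tested. Of the named genes outside the members that were called, 5 of 33, 12 of 29 and 4 of 9 lost the call when some 1 library was left out. Libraries of the same number showed little shared deviation (correlations of -0.0573 to 0.0858). No pairing by number was seen, though 3 libraries a group cannot exclude it. With the replicate block, Krt5 was at -3.33, 3.30 and -0.03, Krt14 at -2.97, 2.84 and -0.13 and Krt15 at -7.90, 3.76 and -4.13, and 1650, 559 and 313 genes were called. With 3 libraries a group, pairwise exact tests of a ratio cannot go below 0.1. Stripped control Krt15 rests on 83 to 165 counts a library.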
